A study of Homo sapiens with 12 samples.

Results

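HCC1806 and MDA-MB-468, a pair of established triple-negative breast cancer cell lines, were compared before any depletion of PACT, using the 6 control-guide libraries of the 12 in the study. PACT is the double-stranded RNA binding protein encoded by PRKRA, and the study depleted it with CRISPR guides to ask how it restrains the kinase PKR. The libraries were chosen by their labels: 3 libraries of HCC1806 cells with the control guide sgC1 and 3 of MDA-MB-468 cells (MB468 in the labels) with the control guide sgNTA. The other 6 libraries carried the guide sgPACT-2, 3 in each line, and served to repeat the line comparison and to test whether the line difference depended on the guide. The line and the control guide differed together, so their parts in a difference cannot be told apart. Total RNA depleted of rRNA was counted per gene, with 20231734 to 23854969 counts per HCC1806 library and 36622064 to 44790741 per MDA-MB-468 library. The labels do not say whether replicates came from separate cultures or clones, so p-values measure only the spread between these libraries.

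Triple-negative tumours lack the estrogen and progesterone receptors and HER2 amplification, and they include basal-like, squamous and mesenchymal forms. HCC1806 is known as a line from a squamous breast carcinoma, and MDA-MB-468 as a basal-like line with amplified EGFR and loss of RB1 and SMAD4. PKR, encoded by EIF2AK2, is activated by double-stranded RNA, phosphorylates the initiation factor eIF2alpha and so starts the integrated stress response, while the same RNA can also be sensed by interferon-inducing receptors.

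Levels are given as CPM, counts relative to the library size after TMM, edgeR's trimmed-mean correction of library sizes. A fold change is the log2 difference HCC1806 minus MDA-MB-468, so a positive value is higher in HCC1806. A gene was called when its adjusted p-value was under 0.05 and its log2 fold change was at least 1 in either direction. Of 24204 genes tested, 13866 were called (57.3%). Of these, 8011 were higher in HCC1806 (33.1% of genes tested) and 5855 higher in MDA-MB-468 (24.2%). By the adjusted p-value alone, 19061 genes passed (78.8%). The CPM of the 3 libraries of each line did not overlap for 19586 genes (80.9%). Counts of called genes in the groups below are therefore to be read against a background in which most genes were called.

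The scale of the fold changes depended on which genes set it. The median fold change was 0.16 over all genes tested and -0.33 over the 15176 protein-coding genes, of which 21.3% were called higher in HCC1806 and 31.0% in MDA-MB-468. When protein-coding genes alone set the scale, single folds moved up by 0.33. Calls among these coding genes then split 53.1% higher in HCC1806 to 46.9% in MDA-MB-468, against 40.7% to 59.3% for the same genes on the scale used here. With library size alone, folds moved up by 0.22, and calls over all genes tested split 64.7% to 35.3%, against 57.8% to 42.2% here. The share of counts on protein-coding genes was 94.2% to 94.7% for HCC1806 and 97.1% to 97.2% for MDA-MB-468. Pseudogenes took 1.12% to 1.28% and 0.49% to 0.51%, and antisense, intronic and long intergenic RNA genes 2.46% to 2.59% and 1.18% to 1.2%. The part of these shares in the many low non-coding genes called higher in HCC1806 was not tested. Genes called higher in MDA-MB-468 within 0.33 of the fold minimum would not be called on the protein-coding scale. Likewise, folds toward HCC1806 less than 0.33 under the minimum would pass that minimum there. List medians below are best read as distances from the protein-coding median of -0.33.

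The genes that define these lines set them apart clearly. EGFR (ENSG00000146648, GRCh38 chromosome 7, 55019021 to 55211628), the epidermal growth factor receptor, measured 1146, 1053 and 1073 CPM in HCC1806 and 7808, 7906 and 8170 in MDA-MB-468. All MDA-MB-468 libraries lay above all HCC1806 libraries, a difference of -2.87 (SE 0.079, adjusted p-value 1.08e-12). RB1 (chromosome 13, 48303726 to 48599436), the retinoblastoma protein that holds back entry into S phase, measured 32.4, 24.8 and 23.7 CPM in HCC1806 and 1.29, 1.31 and 1.47 in MDA-MB-468. Its fold change was 4.31 (SE 0.17, adjusted p-value 3.2e-11). SMAD4 (chromosome 18, 51028394 to 51085045), the shared mediator of TGF-beta signals, followed the same direction with 26.6, 25.2 and 27.4 against 2.31, 1.78 and 2.19 CPM (3.65, SE 0.14). RB1 and SMAD4 were low but not absent in all 3 MDA-MB-468 libraries.

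Neighbouring inhibitors of cyclin-dependent kinases on chromosome 9 were not detected in HCC1806. CDKN2A (21967753 to 21995301), the source of p16 and ARF, had 0 counts in its 3 libraries and measured 73.9, 62.5 and 65.0 CPM in MDA-MB-468. CDKN2B (22002903 to 22009363), the source of p15, likewise had 0 counts against 68.0, 63.7 and 67.5 CPM. Taking 3 counts over the group as the most that a count of 0 allows, CDKN2A was at least 1598-fold and CDKN2B at least 1582-fold higher in MDA-MB-468. A nearby gene, the purine salvage enzyme MTAP, was present in both lines at 29.1, 33.3 and 30.8 against 57.9, 55.9 and 56.1 CPM. KDM6A, a histone demethylase, measured 29.9 ± 3.03 and 34.9 ± 1.67 CPM (SD, n = 3 each), with an adjusted p-value of 0.0637 and a direction that turned under other scalings.

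**Figure D1:**
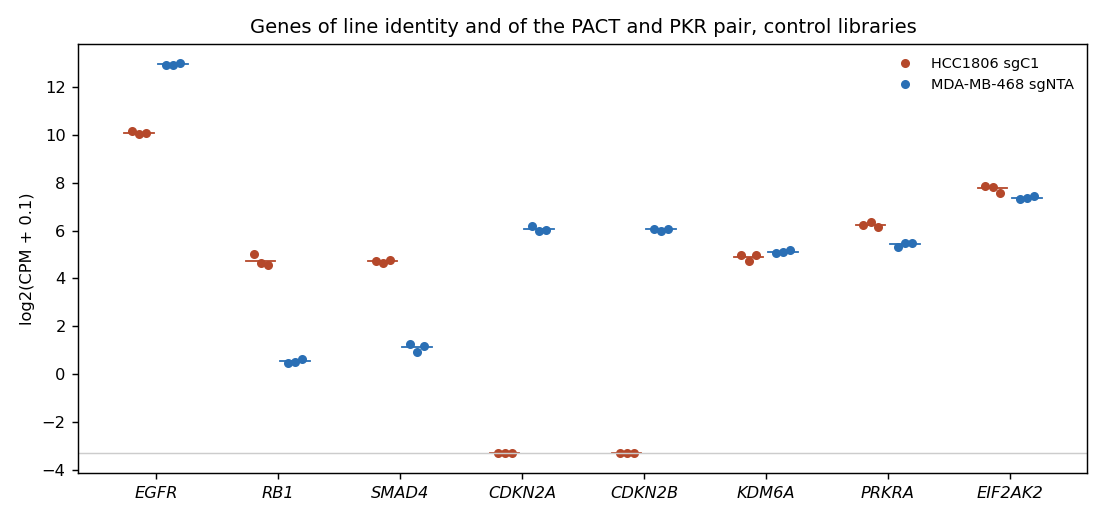
CPM on a log2 axis (after adding 0.1) of genes that define the lines and of PRKRA and EIF2AK2, with 1 point per library and a bar at the mean of 3. EGFR is higher in MDA-MB-468, RB1 and SMAD4 lower, and the CDKN2A and CDKN2B points of HCC1806 lie on the grey line that marks 0 counts.

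Of the 35 tumour suppressor and cell cycle genes, 5 were called higher in HCC1806 and 12 in MDA-MB-468 (median -0.42). This lay near the coding genes tested, with 21.3% called higher in HCC1806 and 31.0% in MDA-MB-468 (median -0.33). The E2F factors, which drive S phase genes when the retinoblastoma protein releases them, were among the latter: E2F1 at 34.7, 32.5 and 38 against 102, 97.5 and 91.3 CPM (-1.47) and E2F2 at 11.6, 16.1 and 16.8 against 149, 141 and 112 CPM (-3.18). E2F3 (-1.22) and the RB1 relative RBL2 (-1.19) went the same way, but fell under the fold minimum when protein-coding genes set the scale (-0.89 and -0.85). CCND2, a D-type cyclin, was at 0 counts in MDA-MB-468 and 6.67, 4.88 and 8.40 CPM in HCC1806, at least 252-fold higher. CCND3, another D-type cyclin, was lower in HCC1806 (-2.61). MYC, a driver of growth, had nearly the same mean in both lines (262, 176 and 244 against 258, 206 and 218 CPM), and these libraries overlapped.

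Presence in one line alone was commoner in HCC1806. Among 41256 genes with a count in the control libraries, 208 had at least 5 CPM in each HCC1806 library and 0 counts in MDA-MB-468 (0.504%), 122 of them protein-coding. The reverse held for 46 genes (0.111%), 37 of them protein-coding. The MDA-MB-468 libraries were deeper, so a count of 0 there was the stricter limit. In the sgPACT-2 libraries of the other line, 170 of the 208 and 25 of the 46 were again at 0.

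The 10 coding genes with the largest fitted folds toward HCC1806 were led by MMP1, the interstitial collagenase, at 642, 350 and 257 CPM and 0 counts in MDA-MB-468. Replicate 1 carried the highest value, and the fold was at least 15850. CST3, the protease inhibitor cystatin C, was steady at 238, 239 and 243 CPM, at least 9052-fold higher than in MDA-MB-468. The others were COL6A2 (collagen VI), MYH13 (a myosin heavy chain of fast muscle), NRG1 (the ligand neuregulin), ACKR3 (a scavenging chemokine receptor), THBD (thrombomodulin), BTBD11 and the zinc finger genes ZNF655 and ZNF618, all at 0 counts in MDA-MB-468. Toward MDA-MB-468, CRISP3, a secreted protein of glands, led with 194, 197 and 240 CPM, at least 5043-fold higher. It was followed by S100A7 (psoriasin), PRLR (the prolactin receptor, 125, 131 and 124 CPM), RIC8A (a chaperone of G protein alpha subunits, 121, 110 and 106 CPM), ATP13A5, OLFM4 and SELENBP1, and then by CDKN2A, CDKN2B and GLYATL2. All 10 were at 0 counts in HCC1806.

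The largest differences in level, rather than in ratio, concerned abundant transcripts. CD44, the hyaluronan receptor, measured 8318, 5383 and 5699 CPM in HCC1806 and 2980, 3233 and 3124 in MDA-MB-468 (1.06, SE 0.13). Its fold fell to 0.81 without HCC1806 replicate 1 and to 1.00 without MDA-MB-468 replicate 1, both under the fold minimum. HSP90B1, the endoplasmic reticulum chaperone GRP94, was at 4748, 3858 and 3573 against 664, 758 and 728 CPM (2.5). The laminin chain LAMA5 (2.10), the cytolinker PLEC (2.49) and the nuclear RNA NEAT1 (2.97) were also higher in HCC1806. In MDA-MB-468, EGFR was joined by ACTB (cytoplasmic actin, 2533 ± 550 and 7037 ± 448 CPM), EEF1A1 (an elongation factor, 2910 ± 161 and 7881 ± 236), FASN (fatty acid synthase, 807 ± 124 and 3726 ± 282) and FLNA (filamin A, 1330 ± 190 and 5489 ± 418; SD, n = 3 each).

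The squamous label of HCC1806 was checked against 60 genes of basal and squamous keratinocytes, of which 52 were tested. They split evenly, with 18 called higher in HCC1806 and 19 in MDA-MB-468 and a median of -0.41. The 10 keratins among them had 2 called higher in HCC1806 and 5 in MDA-MB-468. TP63, the master factor of stratified epithelium, measured 226, 265 and 240 CPM in HCC1806 and 0.56, 0.41 and 0.82 in MDA-MB-468 (8.64, SE 0.17, adjusted p-value 5.83e-14). KRT6A, an activation keratin, was at 243, 244 and 242 against 3.98, 3.07 and 3.48 CPM (6.11), and KRT13, a keratin of mucosal squamous cells, at 36.6, 150 and 160 against 1.10, 0.50 and 1.08 CPM (6.99). Every HCC1806 library was above every MDA-MB-468 library for each, although KRT13 in HCC1806 replicate 1 was the lowest of its group.

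Of 13 desmosome and junction genes, 6 were called higher in HCC1806 and 1 in MDA-MB-468. A desmosomal cadherin, DSG3, was at 23.6, 35.2 and 34.9 CPM in HCC1806 and had a single count over the 3 MDA-MB-468 libraries. The plakophilin PKP1 (7.11), the gap junction protein GJB2 (3.35) and P-cadherin, CDH3 (3.26), were higher in HCC1806 as well. DSC2, another desmosomal cadherin, was lower (-2.98), while desmoplakin, DSP, was abundant in both lines (939, 976 and 985 against 1158, 1194 and 1166 CPM) and was not called.

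The later products of keratinocyte differentiation leaned the other way, with 8 of 24 tested called higher in HCC1806, 12 in MDA-MB-468 and a median of -1.62. S100A9, a subunit of calprotectin, measured 0.88, 0.36 and 0.25 CPM in HCC1806 and 351, 344 and 363 in MDA-MB-468 (-9.44, and -10.20 without HCC1806 replicate 1). Its partner S100A8 had 3 counts in all in HCC1806, from replicate 1 alone, against 35.1, 35.3 and 32.4 CPM. S100A7 had none, against 150, 142 and 139 CPM (at least 3416-fold). The kallikrein proteases KLK5 (-3.21) and KLK6 (-6.04), the elastase inhibitor PI3 (-5.33), involucrin, IVL (-3.24), and transglutaminase 1, TGM1 (-2.35), were also higher in MDA-MB-468. Cystatin A, CSTA (5.70), SERPINB13 (7.10, and 8.44 without MDA-MB-468 replicate 3), FABP5 (5.19) and S100A2 (2.88) were higher in HCC1806.

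Keratins can be ranked within a line once counts are divided by exon length. Per kilobase of exon, KRT19 led in both lines with 31.3% of the summed keratin level in HCC1806 and 20.4% in MDA-MB-468. KRT5 held 18.8% and 12.8%, and KRT7 16.5% and 13.8%. The lines parted below these: KRT6A held 8.88% in HCC1806 and 0.0602% in MDA-MB-468, and KRT17 held 0.654% and 10.0%. In CPM, KRT17 measured 16.4, 21.0 and 20.1 against 726, 596 and 550 (-5.03), KRT16 7.56, 9.62 and 5.81 against 161, 144 and 138 (-4.27), and KRT6B 0.16, 0.27 and 0.13 against 23.4, 23.0 and 21.8 (-6.93). KRT6A, KRT6B and KRT6C are near-identical, so their counts are uncertain in how reads were shared.

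Of 39 simple epithelial and luminal genes tested, 6 were called higher in HCC1806, 18 in MDA-MB-468 and 15 in neither (median -0.79). The 9 hormone axis genes among them had 3 called higher in HCC1806 and 2 in MDA-MB-468 (median 0.50). All 8 luminal keratins had negative folds and 6 were called. KRT8 measured 437, 357 and 455 against 1304, 1229 and 1324 CPM (-1.63), and KRT18 229, 164 and 260 against 523, 430 and 491 (-1.15, and -0.99 without HCC1806 replicate 2). The hair keratin KRT81 was at 0.52, 0.75 and 1.34 against 526, 388 and 443 CPM (-9.02) and KRT23 at 0.28, 0.58 and 0.54 against 360, 315 and 312 CPM (-9.46). Among progenitor genes, PROM1 (CD133) measured 1.37, 0.80 and 0.59 against 223, 238 and 234 CPM (-7.97) and the factor SOX9 17.5, 11.1 and 9.98 against 299, 278 and 291 (-4.49). The epithelial factor SPDEF (-9.21), the mucin MUC1 (-4.63) and CD24 (-5.18), a surface glycoprotein at 2168, 2040 and 2471 CPM in MDA-MB-468, went with them. Both lines were epithelial by EPCAM (223, 173 and 181 against 165, 179 and 173 CPM) and by CDH1, E-cadherin (406, 392 and 413 against 230, 240 and 241 CPM), neither of which was called. The fold of CDH1 was above the minimum, at 1.10, when protein-coding genes set the scale.

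Hormone receptor transcripts were checked against the triple-negative label. PGR was near 0 in both lines, with at most 0.13 CPM in any library. ESR1 measured 19.1, 19.7 and 22.7 CPM in HCC1806 and 6.04, 6.81 and 6.39 in MDA-MB-468 (1.68), so its RNA was present in both. TFF1, a target of the estrogen receptor, had a count in 1 library only. ERBB2, the HER2 gene, was at 174, 191 and 206 against 133, 131 and 140 CPM and was not called.

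**Figure D2:**
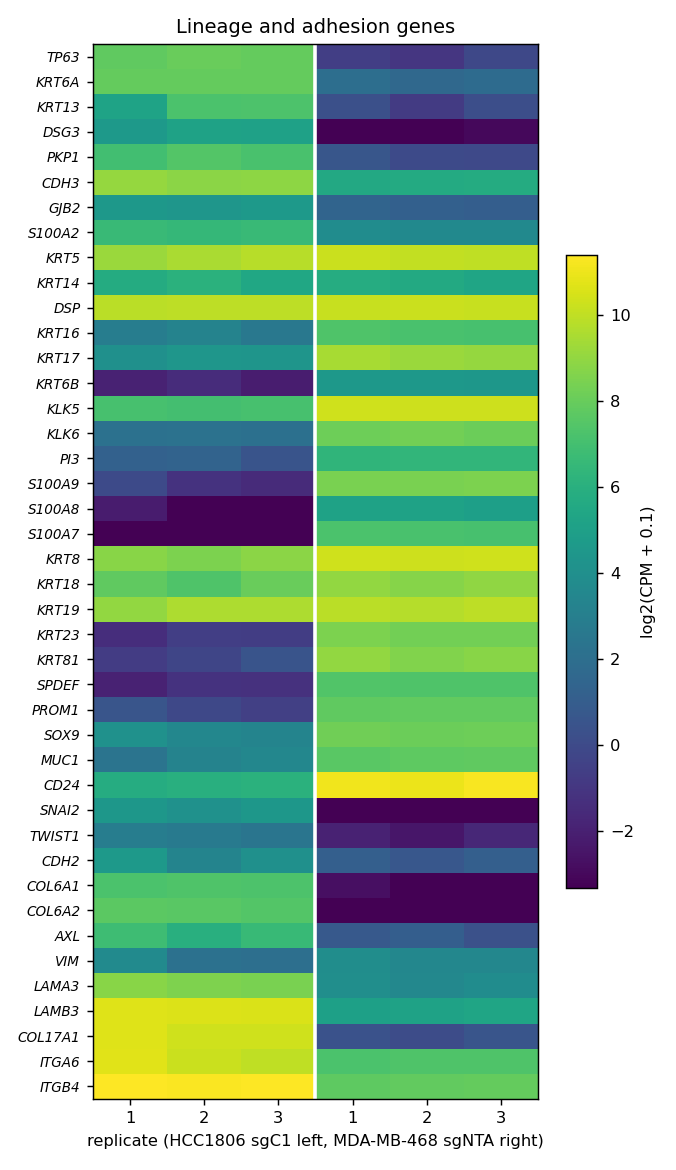
Level of lineage and adhesion genes as log2(CPM + 0.1), with 1 column per control library (HCC1806 on the left, MDA-MB-468 on the right). TP63 and the basement membrane genes at the bottom are high in HCC1806, while S100A7 to S100A9, KRT81, SPDEF and CD24 are high in MDA-MB-468, and KRT5, KRT14 and DSP, none of them called, are high in both.

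Genes of cell attachment to the basement membrane leaned toward HCC1806. Of 18 hemidesmosome and integrin genes tested, 12 were called higher in HCC1806 and 3 in MDA-MB-468 (median 2.69). Chains of the epithelial laminin, the anchor ligand of basal epithelium, were higher: LAMA3 at 450, 381 and 345 against 15.6, 11.6 and 14.3 CPM (4.82) and LAMB3 at 1646, 1597 and 1528 against 32.7, 36.3 and 41.1 CPM (5.44). COL17A1, the transmembrane collagen of the hemidesmosome, measured 1670, 1291 and 1306 against 1.21, 0.96 and 1.37 CPM (10.22, SE 0.17, adjusted p-value 3.83e-14). Their receptor, integrin alpha6 beta4, followed with ITGA6 (3.06) and ITGB4 (2666, 2551 and 2720 against 217, 238 and 242 CPM, 3.51). No library of one line overlapped the other for these genes. The integrins called higher in MDA-MB-468 were ITGB5 (-1.25), ITGB6 (-1.24) and ITGB8 (-1.37), which pair with alphaV and activate TGF-beta. ITGAV itself was not called.

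Of 22 mesenchymal genes tested, 13 were called higher in HCC1806 and 2 in MDA-MB-468 (median 1.62). The factor SNAI2 (Slug) measured 22.3, 17.6 and 22.1 CPM in HCC1806 and had 0 counts in MDA-MB-468, and TWIST1 was at 7.36, 6.74 and 5.10 against 0.16, 0.09 and 0.22 CPM (5.30). The collagen genes COL5A1 (10.29) and COL6A1 (153, 163 and 155 CPM against 2 counts in all) were called, as was the receptor kinase AXL at 114, 61.6 and 95.5 against 1.67, 2.04 and 1.15 CPM (5.82). The mesenchymal filament VIM was low in both, at 13.3, 4.35 and 4.01 against 14.9, 11.4 and 11.4 CPM (-0.79, not called, and -1.61 without HCC1806 replicate 1). ZEB1, another such factor, was at most 1.58 CPM in any library. Caveolin 1, CAV1, a coat protein of caveolae, was at 644, 586 and 716 against 72.5, 66.0 and 73.6 CPM (3.20), and CAVIN3, a coat adaptor, at 16.5, 15.2 and 15.4 CPM against 0 counts (at least 593-fold).

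The EGFR family differed in ligands as well as in the receptor, and in the opposite direction. Of 10 ligands tested, 8 were called higher in HCC1806 and 2 in MDA-MB-468. NRG1 was at 119, 99.0 and 129 CPM in HCC1806 and 0 counts in MDA-MB-468 (at least 4371-fold). HBEGF measured 96.5, 83.0 and 95.9 against 7.95, 7.13 and 9.01 CPM (3.51), EREG 58.4, 28.1 and 33.1 against 0.89, 0.94 and 0.36 (5.80), and AREG 29.1, 11.3 and 16 against 2.07, 1.93 and 1.68 (3.32). BTC (-3.20) and NRG2 (-1.22) were the exceptions. ERBB3, the kinase-impaired member of the family, was nearly equal at 109, 130 and 119 against 112, 118 and 125 CPM. LRIG1, which promotes receptor degradation, was at 11.3, 8.03 and 7.98 against 109, 117 and 124 CPM (-3.68).

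PRKRA (ENSG00000180228, chromosome 2, 178431414 to 178451512, minus strand), the gene later targeted, measured 75.8, 81.9 and 71.2 CPM in HCC1806 controls and 39.6, 44.1 and 45.2 in MDA-MB-468 controls. All HCC1806 libraries were above all MDA-MB-468 libraries. Its fold change was 0.83 (SE 0.093, adjusted p-value 1.77e-06), under the fold minimum here and above it, at 1.16, when protein-coding genes set the scale. PRKRA overlaps AC009948.1 on the other strand, which was itself at 29.3 and 4.57 CPM, and reads of the pair could not be separated here, since the strand setting of the counting is not given in the sources used here. EIF2AK2, the gene of PKR, measured 236, 228 and 193 against 162, 166 and 174 CPM (0.39, SE 0.091, adjusted p-value 0.00132) and was not called.

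The other 15 double-stranded RNA binding proteins leaned toward MDA-MB-468, with 0 called higher in HCC1806, 7 in MDA-MB-468 and a median of -0.77. ILF2 (NF45), a subunit of an RNA-binding complex, was at 86.2, 69.0 and 75 against 320, 307 and 289 CPM (-1.99). STRBP (-1.57), the helicase DHX9 (-1.16) and the RNA decay factors STAU1 (-1.06, and -0.99 without HCC1806 replicate 3) and STAU2 (-1.16) were also called. When protein-coding genes set the scale, DHX9 (-0.83), STAU1 (-0.72) and STAU2 (-0.83) fell under the fold minimum. ADAR, which edits adenosine in double-stranded RNA, measured 236, 245 and 252 against 419, 402 and 415 CPM and was not called. TARBP2, the closest relative of PACT, was at 24.2, 22.8 and 24.9 against 29.6, 23.9 and 34.8 CPM, and the groups overlapped. Of the 3 PKR inhibitors in the list, DNAJC3 (p58IPK) was higher in MDA-MB-468 (-1.22, and -0.89 when protein-coding genes set the scale).

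Downstream of eIF2alpha, the lines already differed widely without PACT depletion. Of 34 integrated stress response genes tested, 6 were called higher in HCC1806 and 19 in MDA-MB-468, and their median of -1.44 was the lowest of the 22 lists. ATF4, the factor whose translation the pathway favours, measured 128, 131 and 144 CPM in HCC1806 and 768, 757 and 748 in MDA-MB-468 (-2.5, SE 0.082, adjusted p-value 5.42e-12). TRIB3, an ATF4 target and feedback inhibitor, was at 34.6, 37.0 and 41.4 against 433, 395 and 413 CPM (-3.46). The enzymes of serine and asparagine synthesis followed: PHGDH (-2.6), PSAT1 (-2.81), PSPH (-4.5) and ASNS (-2.26), as did the one-carbon enzymes SHMT2 (-1.34) and MTHFD2 (-1.58). PSPH lies in the run of chromosome 7 genes described below, all of them higher in MDA-MB-468.

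The stress response genes called higher in HCC1806 included targets of the pathway too. Of 21 targets tested, 4 were called higher in HCC1806, 12 in MDA-MB-468 and 5 in neither. GDF15, a secreted stress cytokine, measured 69.2, 67.7 and 84.7 against 1.85, 1.23 and 1.25 CPM (5.67), and SLC7A11, the cystine transporter, 363, 262 and 297 against 54.0, 56.2 and 52.0 (2.51). The mTOR inhibitor DDIT4 (1.13), the amino acid transporter SLC7A5 (1.06, and 1.00 without HCC1806 replicate 3 or 0.99 without MDA-MB-468 replicate 2) and PPP1R15A (GADD34, 1.19), which directs the dephosphorylation of eIF2alpha, were called as well. DDIT3 (CHOP) was at 14.1, 16.1 and 18.9 against 9.83, 8.88 and 10.9 CPM and was not called. Its fold was above the minimum, at 1.06, when protein-coding genes set the scale. Among the eIF2alpha kinases other than PKR, EIF2AK4 (GCN2) was higher in HCC1806 at 157, 146 and 135 against 43.3, 44.0 and 48.0 CPM (1.70). EIF2AK3 (PERK) was lower at 13.1, 10.8 and 11.6 against 35.1, 40.5 and 40.1 CPM (-1.70), and EIF2AK1 (HRI) was not called (-0.64). EIF2AK3 lies next to a run of chromosome 2 genes, RGPD1 to TEX37, that were all higher in MDA-MB-468. The coding genes from 80 to 90 Mb there had a median fold of -1.72.

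**Figure D3:**
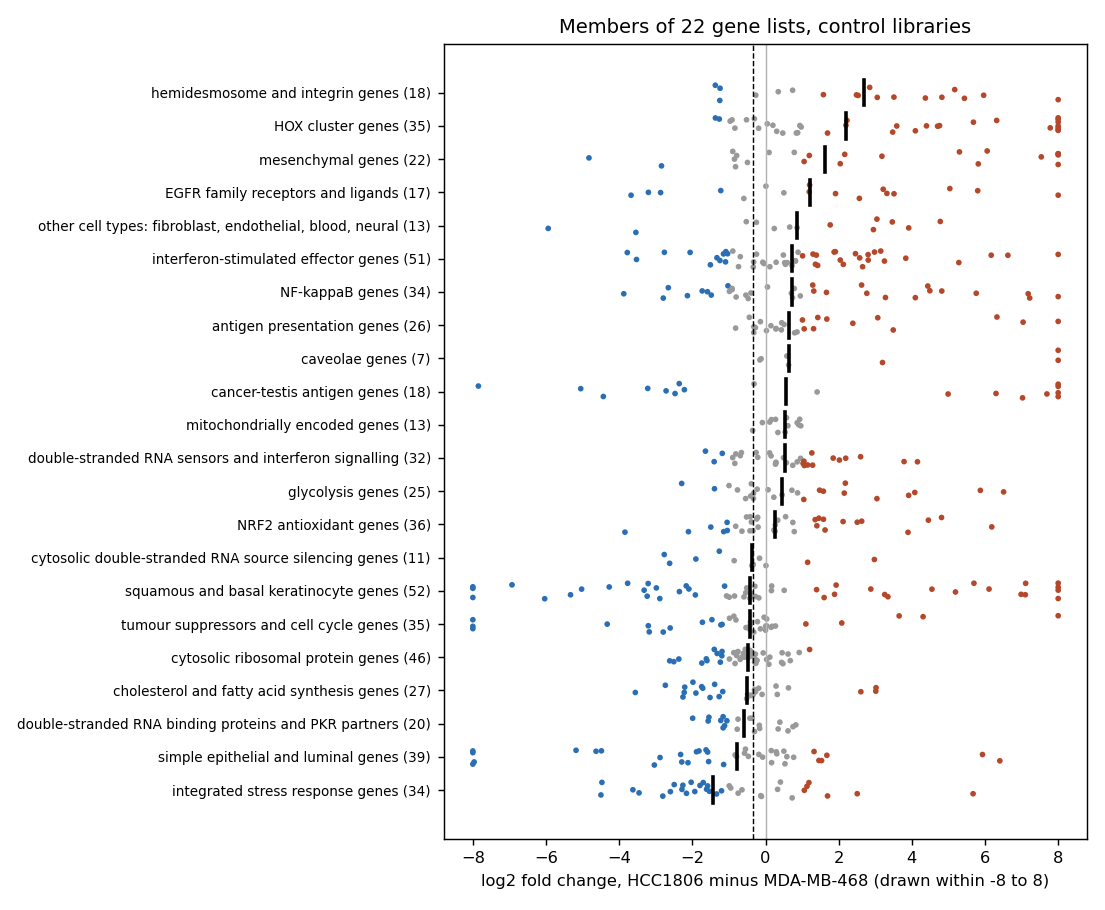
Fitted log2 fold changes of the tested members of 22 gene lists (number tested in brackets), drawn within -8 to 8, in red where called higher in HCC1806, in blue where called higher in MDA-MB-468 and in grey otherwise. Black bars are list medians and the dashed line is the protein-coding median of -0.33, with hemidesmosome and integrin genes highest (2.69) and integrated stress response genes lowest (-1.44).

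Sensors of double-stranded RNA and DNA were higher in HCC1806. Of 11 tested, 7 were called higher there and 0 in MDA-MB-468. OAS2 and OAS3, synthetases of the second messenger that activates RNase L, measured 42.5, 42.3 and 35.4 against 2.26, 1.99 and 2.48 CPM (4.15) and 155, 171 and 190 against 31.3, 27.6 and 26.3 CPM (2.60). CGAS, the DNA sensor, was at 31.2, 23.3 and 24.2 against 2.07, 1.14 and 2.43 CPM (3.79). DDX58 (RIG-I) at 18.1, 17.2 and 16.5 against 10.6, 10.5 and 9.85 CPM and IFIH1 (MDA5) at 14.7, 16 and 13.0 against 23.7, 23.7 and 23.1 CPM were not called and had opposite signs. The fold of DDX58 was above the minimum, at 1.08, when protein-coding genes set the scale. The adaptors MAVS and TICAM1 and the factors IRF1, IRF3, IRF7 and STAT2 were not called. The interferon receptor chains IFNAR1 (-1.18), IFNAR2 (-1.40) and IFNGR1 (-1.64) were higher in MDA-MB-468. IFNB1, the interferon beta gene, had 2 counts over the HCC1806 libraries and 1 over those of MDA-MB-468.

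The 51 interferon-stimulated effector genes were divided, with 22 called higher in HCC1806, 11 in MDA-MB-468 and a median of 0.73. The restriction factor MX2 measured 87.0, 99.5 and 72.5 against 1.16, 1.26 and 1.18 CPM (6.17), and the nuclear DNA sensor IFI16 61.8, 64.0 and 53.5 against 0.11, 0 and 0.17 CPM (9.21, and 9.93 without MDA-MB-468 replicate 3). IFIT1, which binds RNA with foreign caps, was at 18.1, 18.5 and 16.8 against 1.72, 1.67 and 2.19 CPM (3.25), and IFI27 (6.63, and 5.97 without MDA-MB-468 replicate 3), IFI44L (5.28) and IFI6 (3.15) were called too. GBP2, a guanylate-binding protein, was at 1.73, 4.92 and 2.00 against 31.4, 42.1 and 44.2 CPM (-3.78, and -4.40 without HCC1806 replicate 2), CMPK2 at 0.68, 0.67 and 0.67 against 8.19, 7.30 and 7.88 CPM (-3.53), and its neighbour RSAD2 (viperin) was lower in HCC1806 as well (-2.77). MX1 and ISG15, widely used reporters of interferon signalling, were not called at 36.5, 41.8 and 41.5 against 29.4, 25 and 28.9 CPM and at 7.08, 10.9 and 8.36 against 6.50, 6.81 and 8.14 CPM.

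Antigen presentation genes were called in one direction only, with 11 of 26 higher in HCC1806, 0 in MDA-MB-468 and a median of 0.65. B2M, the light chain of class I molecules, measured 732, 815 and 630 against 266, 259 and 284 CPM (1.43). HLA-B measured 250, 298 and 214 against 127, 121 and 130 CPM (1.01) and lay at the fold minimum: it fell under it without HCC1806 replicate 1 (1.00) or 2 (0.87) and without MDA-MB-468 replicate 1 (0.99) or 2 (0.96). HLA-C was not called. Class I genes are similar in sequence, so how reads were shared among them is uncertain. CD74, the class II invariant chain, was at 96, 110 and 91.6 against 0.54, 0.70 and 0.99 CPM (7.04). Its partner HLA-DRA averaged 0.11 CPM in HCC1806, and CIITA, the class II activator, was at 3.94, 8.69 and 5.10 against 3.49, 3.18 and 3.05 CPM and not called, although its fold of 0.86 was 1.06 without HCC1806 replicate 1.

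In the NF-kappaB list, cytokines leaned toward HCC1806, while the median of the pathway's own regulators lay near that of coding genes. Of 16 cytokines and chemokines tested, 12 were called higher in HCC1806 and 3 in MDA-MB-468 (median 3.69). Of 10 subunits and inhibitors, 0 were called higher in HCC1806 and 3 in MDA-MB-468 (median -0.47). Among all coding genes tested, 21.3% were called higher in HCC1806 and 31.0% in MDA-MB-468 (median -0.33). IL1A and IL1B, the interleukin 1 cytokines, measured 89.6, 36.8 and 67.3 against 0.59, 0.29 and 0.43 CPM (7.18) and 82.5, 41.6 and 51.9 against 0.64, 0.26 and 0.26 CPM (7.22). The neutrophil attractants CXCL1, at 25, 11.3 and 17.4 against 0.56, 0.18 and 0.24 CPM (5.76, and 6.36 without MDA-MB-468 replicate 1), CXCL2 (2.63), CXCL3 (4.44) and CXCL8 (3.28) were all called, as was CXCL6, with 0 counts in MDA-MB-468. CXCL1, CXCL2 and CXCL3 are close copies, so the split of reads among them is uncertain. The inhibitor NFKBIB was at 4.10, 5.41 and 4.76 against 78.6, 64.2 and 66.4 CPM (-3.88), the co-activator BCL3 was at 10.4, 14.8 and 18.7 against 66.0, 63.0 and 63.8 CPM (-2.14), and LIF (-2.80), CCL28 (-2.66) and ICAM1 (-1.48) were also higher in MDA-MB-468. The list's median of 0.72 became -0.12 when testing was limited to genes averaging 50 counts or more.

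The interferon-stimulated effector genes were divided, with 22 called higher in HCC1806, 11 in MDA-MB-468 and 18 in neither. The promoters shown are of chemokine and interferon-stimulated genes picked from those called higher in HCC1806. They are the RefSeq (GRCh38.p14) bases from -160 to -41 relative to the annotated start, in the gene's own direction. Capitals mark a kappaB-like motif (GGGA, any 2 bases, TTCC) in the 4 CXCL genes and an interferon response-like motif (GAAA, any 2 bases, GAAA) in the other genes, each on either strand and with overlapping matches joined.
CXCL1 (chr4:73869233-73869352, plus strand): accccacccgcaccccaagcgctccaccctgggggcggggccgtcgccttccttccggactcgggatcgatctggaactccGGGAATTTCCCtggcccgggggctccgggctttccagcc
CXCL2 (chr4:74099236-74099355, minus strand): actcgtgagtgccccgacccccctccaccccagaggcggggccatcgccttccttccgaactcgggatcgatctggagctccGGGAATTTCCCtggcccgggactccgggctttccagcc
CXCL3 (chr4:74038730-74038849, minus strand): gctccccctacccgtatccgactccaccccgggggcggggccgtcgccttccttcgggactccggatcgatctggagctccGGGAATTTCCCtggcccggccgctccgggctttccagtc
CXCL6 (chr4:73836518-73836637, plus strand): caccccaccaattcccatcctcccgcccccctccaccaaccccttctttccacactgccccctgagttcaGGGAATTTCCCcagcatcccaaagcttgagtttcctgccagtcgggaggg
IFIT1 (chr10:89392463-89392582, plus strand): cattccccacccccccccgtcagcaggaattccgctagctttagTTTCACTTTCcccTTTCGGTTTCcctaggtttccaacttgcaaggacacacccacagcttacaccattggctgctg
IFI6 (chr1:27672233-27672352, minus strand): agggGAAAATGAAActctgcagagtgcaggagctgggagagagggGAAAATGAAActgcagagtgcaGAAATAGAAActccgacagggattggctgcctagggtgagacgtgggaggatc

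One and the same run of capitals stands in all 4 CXCL promoters, and it reads as the motif on both strands. In windows from 250 bases before to 50 after the start, the kappaB-like motif was found in 14 of the 34 NF-kappaB list genes with a RefSeq promoter, of 42 in the list (41.2%), and in 1.63% of 27305 promoters. It was present in 6 of 11 list genes called higher in HCC1806, in 0 of the 6 that were higher in MDA-MB-468 and in 4 of 10 not called. The remaining matches were in LTB, IL6, CXCL5 and CXCL10, which were not tested between the lines. CXCL1, CXCL2, CXCL3 and CXCL6, with their shared run of capitals, were among the 6 matches higher in HCC1806. Matches to the interferon response-like motif were found in 30 of the 41 effector genes with a promoter, of 51 (73.2%), and in 3.65% of all. They were found in 12 of 17 effector genes higher in HCC1806, in 5 of 7 higher in MDA-MB-468 and in 13 of 17 not called. A match describes the letters of the window and not the binding of a factor.

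Antioxidant genes under NRF2 were mixed, with 12 of 36 called higher in HCC1806, 6 in MDA-MB-468 and a median of 0.25. FTL, the ferritin light chain, measured 2562, 2713 and 2552 against 175, 169 and 183 CPM (3.90), whereas FTH1, the heavy chain, measured 888, 1073 and 851 against 1949, 2133 and 2125 (-1.14). The subunits of glutamate cysteine ligase differed likewise, GCLC being higher in HCC1806 (1.46) and GCLM in MDA-MB-468 (-1.5). The detoxifying enzymes ALDH3A1 (4.45), GPX2 (6.19) and AKR1C3 (4.81) and the exporters ABCC1 (2.12) and ABCC2 (2.63) were higher in HCC1806. KEAP1, the adaptor that targets NRF2 for degradation, was at 44.9, 55.7 and 51.9 against 233, 209 and 215 CPM (-2.11), and NFE2L2, the NRF2 gene, was not called.

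Sterol synthesis genes were higher in MDA-MB-468, with 9 of 17 called there and 0 in HCC1806 and a median of -1.17. The mevalonate pathway enzymes MVD (-2.26) and FDPS (-2.22) and the sterol sensor partner INSIG1 (-1.98) were among them. HCC1806 replicate 1 was the highest of its group for all 17 of these genes, for example SQLE at 250, 113 and 119 CPM. Of 10 fatty acid genes, 3 were called higher in HCC1806 and 4 in MDA-MB-468. Among the latter were FASN (-2.21), ACLY, which makes cytosolic acetyl-CoA (-1.52), and the desaturase SCD (-1.27). Among the former were the desaturases FADS1, at 137, 112 and 120 against 14.3, 14.5 and 16.7 CPM (3.02), and FADS2 (3.01). Of 25 glycolysis genes, 10 were called higher in HCC1806 and 2 in MDA-MB-468 (median 0.45). The lactate exporter SLC16A3 (4.08) and the hexokinase HKDC1 (6.51) were among the former, and HK2 (-2.29) and PGK1 (-1.40) were the latter.

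The 13 mitochondrially encoded mRNAs tested had a median of 0.54 and none was called. The same 13 had 9 genes without overlap between the lines, a smaller share than the 80.9% of all genes tested. The share of counts on mitochondrial genes was 13.7 ± 1.11% for HCC1806 and 8.25 ± 0.80% for MDA-MB-468 (SD, n = 3 each), a difference with an exact two-sided permutation p of 0.1, the smallest that 3 against 3 libraries allow. Of 46 cytosolic ribosomal protein genes, 1 was called higher in HCC1806 and 11 in MDA-MB-468. RPL10 was the farthest of the latter at 270, 265 and 280 against 1665, 1646 and 1694 CPM (-2.62). Ribosomal protein genes have many processed copies in the genome, so their counts are uncertain in how reads were shared.

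Of 11 genes of chromatin silencing, 2 were called higher in HCC1806 and 4 in MDA-MB-468 (median -0.37), near the protein-coding median. The maintenance DNA methyltransferase DNMT1 measured 199, 163 and 203 against 1308, 1278 and 1258 CPM (-2.77), and DNMT3A was lower in HCC1806 as well (-2.62). DNMT3B, the other de novo enzyme, was higher at 66.2, 61.9 and 73.6 against 8.76, 8.88 and 8.00 CPM (2.98). The corepressor TRIM28 was higher in HCC1806 (1.15) and EZH2, the enzyme of Polycomb repression, in MDA-MB-468 (-1.90).

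HOX genes, which keep positional identity, were higher in HCC1806, with 19 of 35 called there, 2 in MDA-MB-468 and a median of 2.2. The clusters differed. All 7 HOXD genes tested were called, and 6 had 0 counts in MDA-MB-468, for example HOXD10 at 23.9, 32.0 and 24.9 CPM (at least 1010-fold). HOXD3 had 1 count there. In HOXB, 6 of 9 were called higher in HCC1806, among them HOXB5 (7.78, and 7.13 without MDA-MB-468 replicate 3), HOXB6 (4.40) and HOXB9 (5.68), while HOXB4 and HOXB7 were detected in both lines and were not called. In HOXC, the 2 called genes, HOXC11 (-1.26) and HOXC13 (-1.37), were higher in MDA-MB-468. Cancer-testis genes differed by family member: MAGEA3 (-4.43), MAGEA6 (-2.72) and MAGEA12 (-3.22) were higher in MDA-MB-468, and MAGEA4 (4.99), MAGEA10 (7.03), PRAME (at least 1276-fold) and CTAG2 (at least 681-fold) in HCC1806. MAGEA3, MAGEA6 and MAGEA12 are near-identical, and their separate values are uncertain.

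Some of the extreme differences lay side by side in the genome. A run was taken as 3 or more neighbouring coding genes called in one direction with log2 fold changes of at least 3, skipping genes not tested. There were 113 runs, 78 of them (309 genes) higher in HCC1806 and 35 (138 genes) higher in MDA-MB-468. Runs held coding genes only. Coding genes called at a log2 fold minimum of 1 numbered 3233 higher in HCC1806 and 4703 in MDA-MB-468. Over all genes, coding or not, 5019 were called higher in HCC1806 and 2610 in MDA-MB-468 at a minimum of 2. The split of coding genes at the minimum of 3 used for runs is not given here. Genes at 0 counts in one line passed the filter through the other line alone. Whether runs were more frequent than the number of extreme genes would give was not tested. The longest held 12 genes on chromosome 16, from 4510675 to 4960741, from CDIP1 to PPL. In HCC1806, SMIM22 was low at 0.32, 0.67 and 1.00 CPM, and the other genes of the run were higher, for example UBN1, a histone chaperone subunit, at 69.4, 65.4 and 70.2 CPM, GLYR1 at 68.5, 59.0 and 67.3 CPM and MGRN1, a ubiquitin ligase, at 42.0, 45.9 and 51.4 CPM. In MDA-MB-468, 9 of the 12 had 0 counts and MGRN1 had 1. The end genes kept traces there, CDIP1 at 0.24, 0.15 and 0.12 CPM and periplakin, PPL, at 0.51, 0.20 and 0.19 CPM against 218, 242 and 306 in HCC1806. Outside the run, NMRAL1 measured 35.2 ± 1.39 against 31.9 ± 1.06 CPM and ALG1 14.4 ± 0.84 against 13.4 ± 0.21 CPM (SD, n = 3 each). SEC14L5, next to PPL, was higher in MDA-MB-468 (29.8 ± 2.32 against 0.21 ± 0.080 CPM).

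The region of EGFR formed the strongest shift toward MDA-MB-468. The bin from 50 to 60 Mb of chromosome 7 had a median fold of -3.99 over 17 genes, the lowest of the 10 Mb bins with at least 10 genes, and 1 of the 17 was positive. Within it, 7 neighbouring genes from LANCL2 to CCT6A (55365448 to 56063989) made a run. LANCL2 measured 5.07, 4.75 and 5.39 against 909, 922 and 916 CPM (-7.50), VOPP1 39.5, 33.1 and 30.7 against 1670, 1578 and 1766 (-5.60) and PSPH 15.1, 11.0 and 12.2 against 284, 281 and 304 (-4.5). SEC61G (-6.30), on the other side of EGFR, and SUMF2 (-2.52) and CHCHD2 (-4.21) beyond the run were higher in MDA-MB-468 too. COBL, farther toward the start of the chromosome, was higher in HCC1806 (5.53, and 6.46 without MDA-MB-468 replicate 1). DNA copy number was not analysed here.

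Other runs consisted of gene families. On chromosome 19, 10 zinc finger genes from ZNF506 to ZNF85 (19785839 to 20950697), were all higher in MDA-MB-468, such as ZNF253 at 1.17, 0.67 and 0.50 against 20, 24.3 and 22.7 CPM (-4.83). Over chromosome 19, 104 of 242 zinc finger genes were called higher in MDA-MB-468 and 22 in HCC1806, with a median of -0.76. Of its other 911 coding genes, 319 were called higher in MDA-MB-468 and 197 in HCC1806 (median -0.41). Of 260 zinc finger genes on other chromosomes, 71 were called higher in MDA-MB-468 and 39 in HCC1806 (median -0.39). In HCC1806, 5 runs held olfactory receptor genes, with 9 of them in a row on chromosome 11 (OR10D3 to OR8A1) at 0 counts in MDA-MB-468 and at 0.376 to 6.43 CPM in HCC1806. The summed level of 128 olfactory receptor genes was 39.1, 46.2 and 49.3 CPM against 5.32, 7.71 and 5.17 CPM. Runs of S100A7 to S100A9 and of CXCL8 to CXCL3 repeated genes named above, and the UGT1A run on chromosome 2 consists of overlapping genes that share exons.

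**Figure D4:**
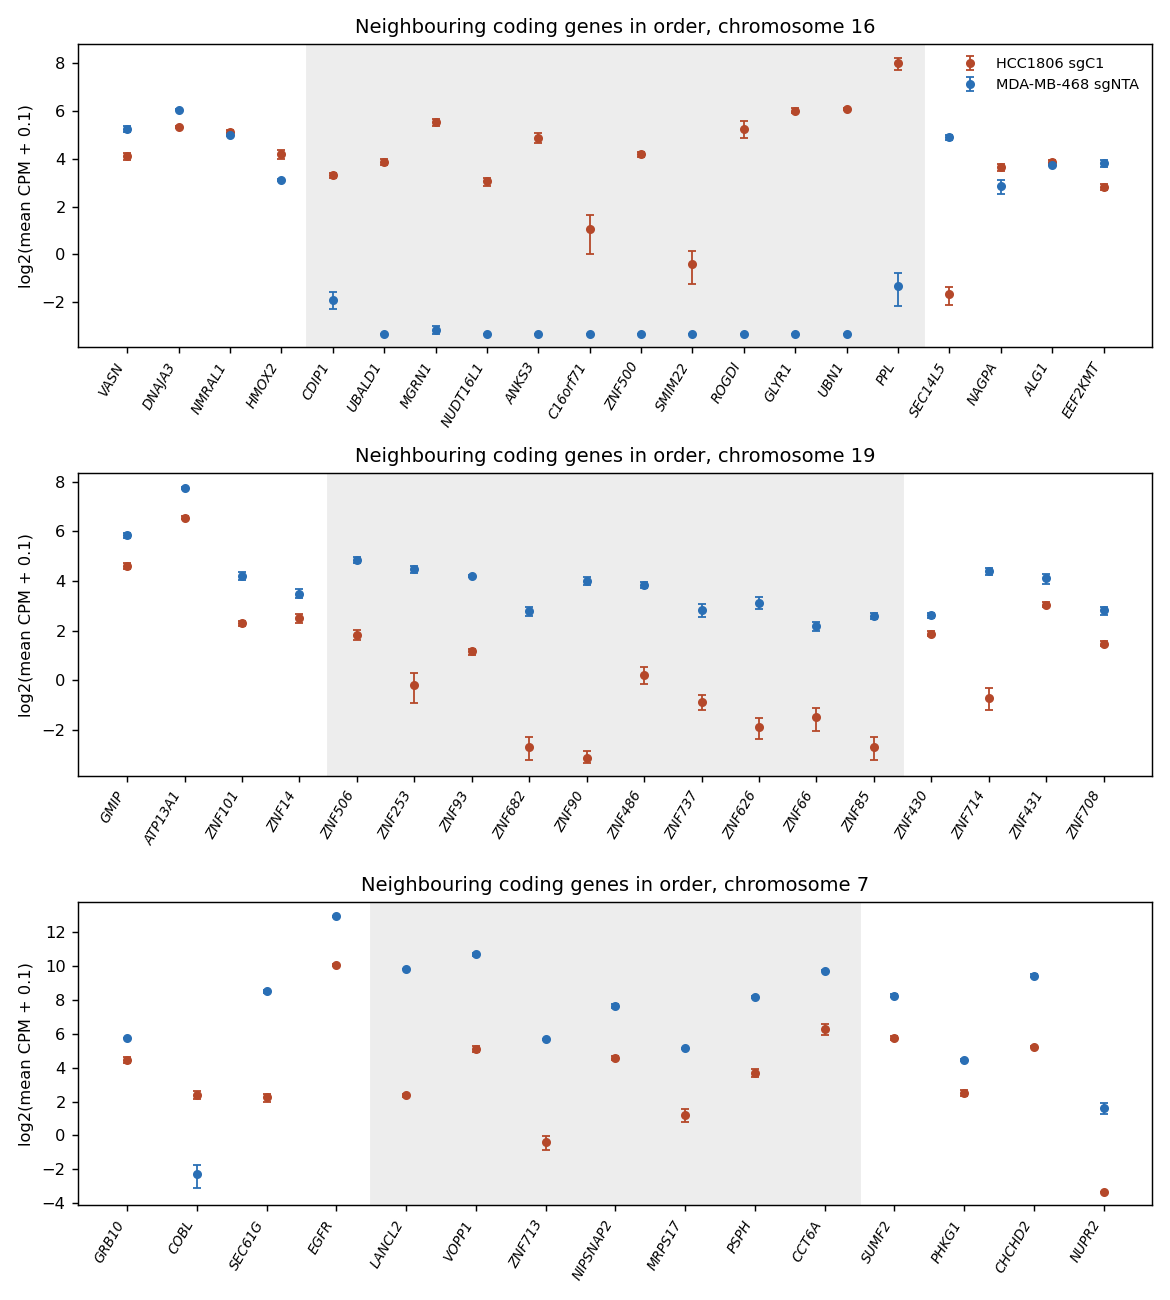
Mean CPM (log2 axis after adding 0.1; bars are SD over 3 libraries) of neighbouring coding genes in chromosomal order, with the run shaded and 4 tested genes shown on each side. The chromosome 16 genes of MDA-MB-468 drop to the level of 0 counts inside the run and return outside it, whereas the chromosome 7 genes on both sides of the run, apart from COBL, are also higher in MDA-MB-468.

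Whole chromosomes shifted less. The median was -0.43 over the 13192 coding genes averaging 50 counts or more. Chromosome X (-1.38, 427 genes) and chromosome 18 (-1.31, 179 genes) were the lowest, with 16.9% and 16.8% of genes positive. Chromosomes 12 (0.18, 682 genes) and 10 (0.12, 509 genes) were the highest.

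Of 22 markers of other cell types, 13 were tested, with 6 called higher in HCC1806 and 2 in MDA-MB-468. PTPRC and CD3E, which define blood cells, and DCN and COL3A1, which define fibroblasts, were at most 0.543 CPM in every library. The 3 fibroblast markers tested were all called higher in HCC1806: THY1 at 16.5, 8.56 and 10.7 against 0.70, 0.91 and 0.77 CPM (3.91), PDGFRB at 1.61, 3.77 and 2.34 against 0.27, 0.41 and 0.31 CPM (2.95) and LUM, at most 1.17 CPM. Of 5 neural markers, the enolase ENO2 at 46.8, 39.0 and 40.1 against 5.21, 5.67 and 4.40 CPM (3.05) and the granule protein CHGA at 2.09, 1.51 and 1.92 against 0.51, 0.29 and 0.79 CPM (1.77) were higher in HCC1806. The macrophage marker CD68 was higher there too, at 3.74, 2.31 and 2.51 against 0.21, 0.20 and 0.34 CPM (3.47). The endothelial markers KDR, at 12.4, 17.3 and 14.8 CPM in MDA-MB-468 and at most 0.48 in HCC1806, and PECAM1, at most 1.83 CPM, were higher in MDA-MB-468. The part of these markers in other results was not tested.

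The line comparison was repeated in the 6 sgPACT-2 libraries, where both lines carried the same guide and which share no library with the controls. There 14208 of 24736 genes were called (57.4%). Called in both and in one direction were 11977 genes, 86.4% of the control list and 84.3% of the sgPACT-2 list, and 1 gene was called in opposite directions. Across the 23355 genes tested in both, the fold changes correlated with a Pearson r of 0.971, as a description over genes that are not independent and that come from the same cells. ATF4 (-2.45), TP63 (7.82), COL17A1 (10.44), IL1A (7.33) and CD74 (8.31) kept their direction there. A test of whether the line difference itself differed between control and sgPACT-2 libraries passed for 33 of 27029 genes (0.122%). This count ranged from 9 to 168 when single libraries were left out, the extremes being without sgPACT-2 replicate 1 of MDA-MB-468 and of HCC1806. With the replicate number as a block within each line, a fit chosen after seeing the data, 271 genes passed, the 33 among them. PRKRA was among them, since its line difference of 0.83 became -0.04 with sgPACT-2.

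**Figure D5:**
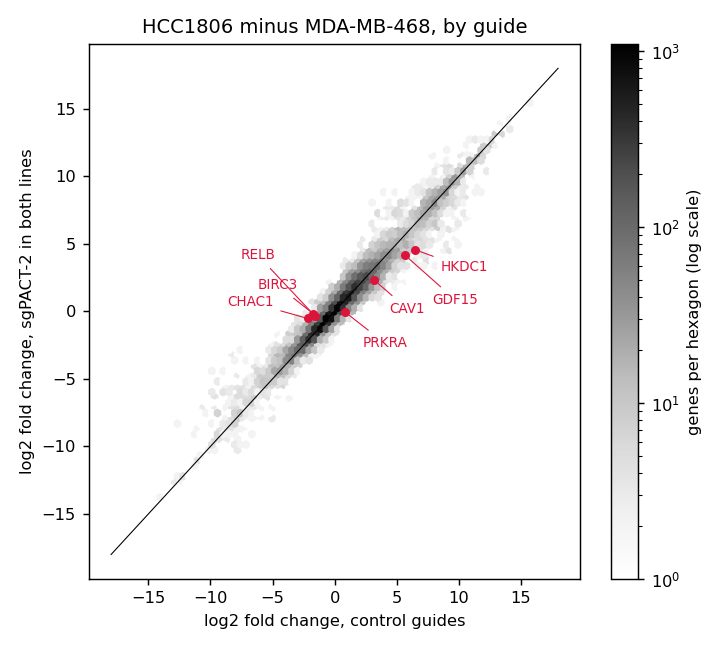
Fitted log2 fold change HCC1806 minus MDA-MB-468 in the control libraries (horizontal) against the same in the sgPACT-2 libraries (vertical), as shaded hexagons of gene numbers with the line of equality. The genes lie along the line, and those named in red, such as PRKRA (0.83 and -0.04) and BIRC3 (-1.73 and -0.17), passed the test of a differing line difference.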

How the data were processed

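Libraries of total RNA, depleted of rRNA, were prepared from 2 cell lines and 4 groups of 3 libraries, per the labels. Reads were trimmed with Trimmomatic 0.36 and aligned with STAR 2.5.2b to GRCh38, and the deposited values are whole-number counts per gene, made by the authors with featureCounts (Subread 1.5.2), per the submitters' processing notes. The strand setting and annotation release are not given in the sources used here, so overlapping and near-identical genes are uncertain. IDs were named through GENCODE 29 (56898 of 57500), and IDs without a name held 0.0284% of counts.

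The 6 control libraries were fitted with edgeR 4.0.16 (R 4.3.3): low genes were removed by filterByExpr, libraries scaled by TMM, and the lines compared by the quasi-likelihood test with Benjamini-Hochberg adjustment over all 24204 genes. The standard error is the fold divided by the square root of F. In simulated counts over 23223 genes with 200 changed, 89% of genes changed by log2 1.5 and 99% of those changed by log2 3 were recovered, with 2.59% false calls. The changed genes averaged at least 50 counts, with as many up as down, whereas 57.3% of genes were called in the data. The simulation therefore cannot give the rate of false calls or the error of scale in the real comparison. No pair of replicates agreed within sampling noise (chi-square per degree of freedom of 7.35 to 20.9). Equally numbered control replicates of different lines did not deviate together (correlations of -0.0413, -0.0256 and -0.0468). Within a line, equally numbered control and sgPACT-2 libraries did in HCC1806 (0.479, 0.294 and 0.152) and less so in MDA-MB-468 (0.116, 0.075 and 0.106). A block within each line was therefore added for the test over all 12 libraries. In HCC1806, however, control replicate 2 with sgPACT-2 replicate 3 gave 0.351, above the 0.294 and 0.152 of equally numbered libraries. Equal numbers are therefore not an established pairing. Alternatives covered scaling, filters, thresholds, DESeq2 1.42.0, depth and leaving out each library.

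The members and lists were chosen with earlier results of these data known. Named genes were PRKRA, EIF2AK2 and the genes known to be altered in these lines, the 10 coding genes of largest fold and the 5 genes of largest CPM difference in each direction, up to 4 called genes of each list in each direction, genes of the longest runs, and those of them whose line difference differed with sgPACT-2. Other list members, flanking genes and overlapping genes were named to complete a role after their values were seen. Promoters came from RefSeq (GRCh38.p14). Some items are not reported here.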

Additional observations from a re-analysis of the deposited data

Results flagged for a closer look

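Of the genes named here, 9 had a line difference that itself differed between the control and the sgPACT-2 libraries, by an interaction term in edgeR's quasi-likelihood fit over all 12 libraries. Each value is the log2 line difference with sgPACT-2 minus that with the control guides. The CPM of control and of sgPACT-2 libraries were scaled in separate fits, so levels across guides are only roughly on the same scale. The interaction used a joint scaling. The control guides differ between the lines, so a difference between guides in 1 line and an effect of sgPACT-2 cannot be told apart.

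PRKRA itself had an interaction of -0.87 (SE 0.14, adjusted p-value 0.0198). It measured 75.8, 81.9 and 71.2 CPM with sgC1 and 38.8, 37.6 and 39.0 with sgPACT-2 in HCC1806, but 39.6, 44.1 and 45.2 with sgNTA and 40.0, 36.2 and 42.5 with sgPACT-2 in MDA-MB-468. Groups overlapped in MDA-MB-468 and not in HCC1806.

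The NF-kappaB genes BIRC3, an inhibitor of apoptosis, and RELB, a subunit, had interactions of 1.56 (SE 0.18, adjusted p-value 0.00169) and 1.24 (SE 0.18, adjusted p-value 0.00674). BIRC3 went from 6.47, 8.74 and 6.10 to 36.6, 31.9 and 33.8 CPM in HCC1806 and from 22.2, 24.1 and 24.3 to 39.5, 36.2 and 39.3 CPM in MDA-MB-468. Their line differences of -1.73 and -1.59 became -0.17 and -0.34. Both passed the test in all 12 fits that left out 1 library, with adjusted p-values of at most 0.018 and 0.0377.

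Among stress response genes, CHAC1, a glutathione-degrading enzyme, had an interaction of 1.64 (adjusted p-value 0.0338) and GDF15 of -1.52 (adjusted p-value 0.0362). The RNA sensor DDX58 had one of 0.97 (adjusted p-value 0.0489). CAV1 (-0.89, adjusted p-value 0.0362), HKDC1 (-1.96, adjusted p-value 0.0343) and HOXB9 (-1.91, adjusted p-value 0.0343) completed the group. Leaving out single libraries ended these calls in most fits, with adjusted p-values of up to 0.133 for CHAC1, 0.165 for GDF15, 0.166 for DDX58 and CAV1, 0.149 for HKDC1, 0.165 for HOXB9 and 0.0931 for PRKRA. With the replicate number as a block within each line, all 9 passed, with adjusted p-values of 0.000421 for BIRC3 and RELB up to 0.0186 for HOXB9.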

How the results depend on the processing

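Restricting the test lowered the counts of calls, by its own construction. With genes of a mean of at least 50 counts, 7916 were called (4184 higher in HCC1806, 3732 in MDA-MB-468), and with protein-coding genes only, 7531 (3999 and 3532). A log2 fold minimum of 2 left 7629 (5019 and 2610) in the control and 7985 (5449 and 2536) in the sgPACT-2 comparison, and no fold minimum gave 8989 higher in MDA-MB-468. Genes present in HCC1806 alone and MDA-MB-468 alone numbered 593 and 130 at 1 CPM and 124 and 30 at 10 CPM, and the latter 113 where up to 3 counts were allowed in HCC1806. Runs numbered 255 at a log2 fold of 2 and 49 with 4 or more genes. The count of genes whose line difference differed with sgPACT-2 was 174 with DESeq2 and 53 with a replicate block across the lines, and 9 to 168 when leaving out 1 library (the cause was not tested). Leaving out 1 library gave 13832 to 14738 calls in the control comparison. With a replicate block across the lines 13608 genes were called. A replicate block within each line, added after seeing the data, gave 271 genes whose line difference differed with sgPACT-2.

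Genes named without a call could change sign. MYC was at -0.023 with all 12 libraries in 1 model, -0.031 with DESeq2, -0.041 without a filter on low counts, -0.013 with the replicate block and -0.14 to 0.15 leaving out 1 library. ERBB3 was at -0.016, -0.022 and -0.030 in the first 3 and -0.066 to 0.051 leaving out 1 library. KDM6A was at 0.00103 with library size only. Limiting the test to a mean of at least 50 counts put NFE2L2 at 0.035, ITGAV at 0.0090 and KDM6A at 0.057. With protein-coding genes only, DSP (0.056), NFE2L2 (0.093), ITGAV (0.066), TARBP2 (0.035), KDM6A (0.11) and HOXB7 (0.028) turned positive. Leaving out 1 library gave -0.022 to 0.29 for KRT14 and -0.075 to 0.26 for IRF1.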
